A study of Mus with 6 samples.

Results

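The 10 antigen processing and presentation genes B2m, Tap1, Tap2, Tapbp, Psmb8, Psmb9, Psmb10, Nlrc5, Cd74 and Ciita were compared between the hippocampus of 3 FSS mice and that of 3 control mice. They were chosen by name. A gene was measured by a row of the array whose annotation gives a single gene symbol, and where a gene had several such rows, the one of highest mean level was used. All 10 genes were measured, of 19938 genes with such a row. FSS mice had swum for 11 min daily on 5 consecutive days, from which they could not escape (forced swim stress, FSS). Control mice had not been made to swim. All mice were C57BL/6JJmsSlc, which the methods give as male, and were 10 to 11 weeks old, with no transgene and no drug in either group. With 1 mouse on each array, the SDs given here are those between mice. By the methods of the paper, more mice of the FSS experiment were run on arrays than its volcano plot used, those used being picked at random. Only the arrays of the 3 FSS and 3 control mice were available here. The hippocampus was taken whole, after the days of swimming and a behavioral test, so that fewer cells of a type and less RNA per cell cannot be told apart.

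Nearly every nucleated cell shows peptides from its own proteins on MHC class I molecules, each made of a heavy chain and the light chain β2-microglobulin. The peptides are cut by the proteasome, in which interferon can replace the catalytic subunits by those of the immunoproteasome, are pumped into the endoplasmic reticulum by the TAP transporter and are loaded with the help of tapasin. MHC class II molecules show peptides from endosomes and are held mostly by professional antigen-presenting cells, and in the brain by macrophages of its borders and by activated microglia. NLRC5 and CIITA are the transcriptional co-activators of class I and class II genes. In the RefSeq annotation of the mouse, Psmb9, Tap1, Psmb8 and Tap2 lie next to each other in this order with no other coding gene between them.

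The values are log2 levels made by robust multi-array averaging (RMA), so a difference of 1 is a doubling. FSS minus control was fitted by limma, which moderates the variance of each gene with that of all others, over the 21789 rows with 1 symbol. Genes were called higher or lower where the unadjusted p was under 0.05. The adjusted p values are those of Benjamini and Hochberg over all rows. Over all rows, 5.14% were called, 2.49% higher and 2.66% lower, and 0 passed an adjusted p of 0.05, the smallest being 0.872 (limma), while 1121 rows had an unadjusted p under 0.05. The thresholds of the paper, which also ask for a log2 fold change over 0.5 in size, called 15 rows (0.0688%), or 8 rows (0.0367%) without moderation of the variance, and none of them was one of the 10 genes. These counts are over rows with 1 symbol and both directions, and are not the paper's own counts of upregulated and downregulated genes. The medians of the 6 arrays differed by at most 0.032. The SD of the values was 2.22 to 2.23 for FSS mouse 2, control mouse 1 and control mouse 2, and 2.26 to 2.27 for the others. Neuronal markers of the hippocampus were at high levels, from 9.83 to 13.5 on the log2 scale over 7 genes, among them Prox1 of dentate granule cells. Precision is limited by the number of arrays. With 3 mice in each group, the exact permutation test cannot give a p under 0.1.

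Of the 10 genes, Tapbp was higher in FSS mice and no gene was lower. A share of 1 in 10 compares with the 2.49% of all rows called higher, and is a single gene. The log2 fold change was above 0 for 8 genes and below 0 for 2, while it was above 0 for 53.0% of all rows. Its median over the 10 genes was 0.020, against 0.0049 over all rows tested, and its median size was 0.033, against 0.047 over all rows. Every limma 95% interval lay within -0.43 and 0.46, and for the genes other than Cd74 within -0.28 and 0.29.

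**Figure D1:**
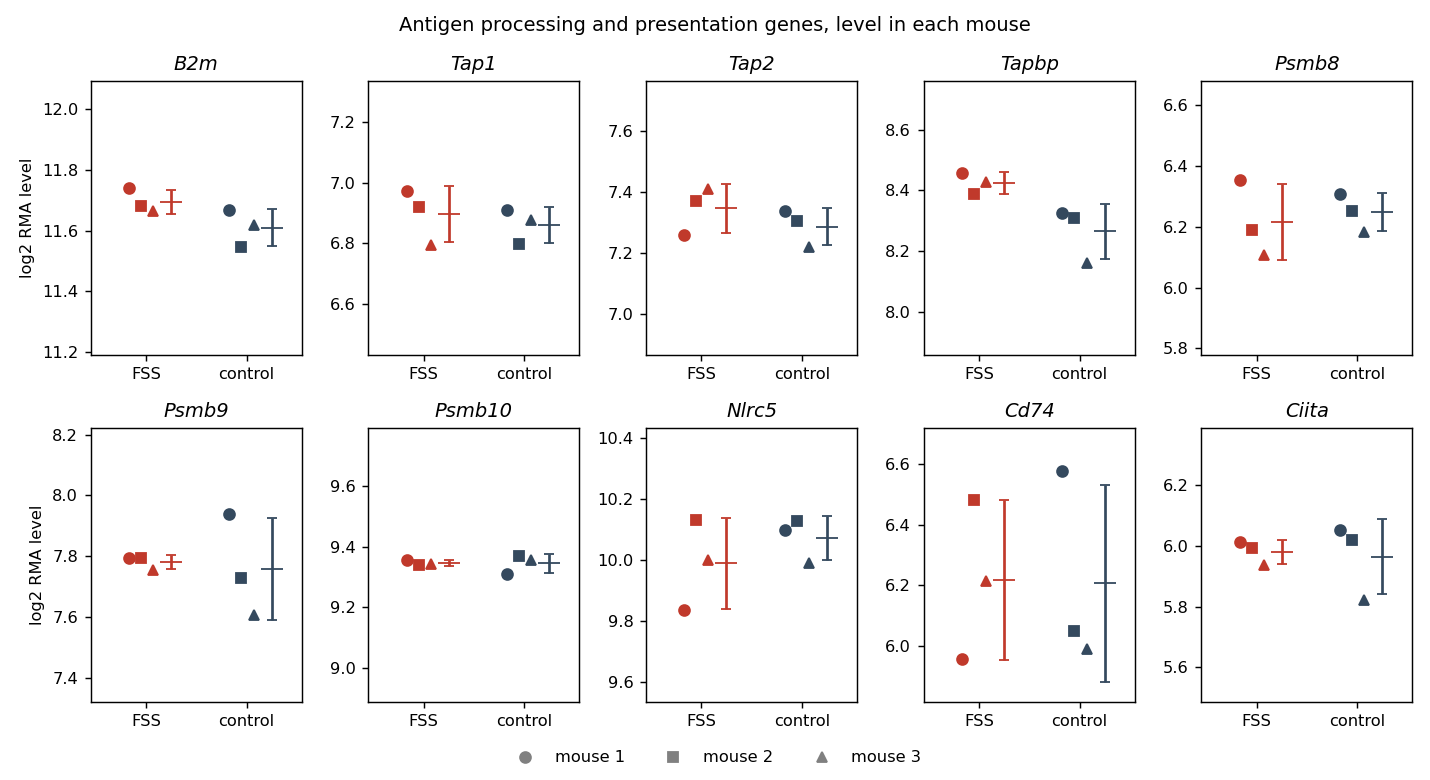
Log2 RMA level (y axis, the same span in each panel) of the 10 genes in FSS mice (red) and control mice (dark blue). Points are mice, with the shape giving the number of the mouse within its group, and bars are the mean ± SD of 3 mice. FSS mice lay above control mice without overlap for Tapbp, and the groups overlapped for the other 9 genes.

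Tapbp encodes tapasin, which bridges class I molecules to the TAP transporter and helps them to bind stable peptides. Its log2 level was 8.46, 8.39 and 8.43 in FSS mice 1, 2 and 3, against 8.33, 8.31 and 8.16 in control mice 1, 2 and 3. The groups did not overlap: the lowest FSS mouse exceeded the highest control mouse by 0.061, and control mouse 3 was the lowest of all. FSS mice averaged 8.43 ± 0.036 and control mice 8.27 ± 0.091 (SD, n = 3 each), a 1.12-fold difference. This gave a log2 fold change of 0.16 (standard error 0.057, 95% interval 0.023 to 0.29, unadjusted p = 0.0283 and adjusted p = 0.943 from limma). The exact two-sided permutation test gave p = 0.1, the smallest it can give. Groups without overlap were found in 10.3% of all rows, with FSS above in 6.02%. Tapbp was not called without FSS mouse 1 (log2 fold change 0.14, limma unadjusted p = 0.0834), without FSS mouse 3 (0.16, limma unadjusted p = 0.068) or without control mouse 3 (0.11, limma unadjusted p = 0.077). Among the 3 arrays of narrower spread, with a single FSS mouse, Tapbp differed by 0.069. Among those of wider spread, with a single control mouse, it differed by 0.28.

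B2m encodes β2-microglobulin, the light chain that all class I molecules share. Its log2 level was 11.74, 11.68 and 11.67 in FSS mice 1, 2 and 3, against 11.67, 11.55 and 11.62 in control mice 1, 2 and 3. The lowest FSS mouse and the highest control mouse were nearly level, the FSS mouse lying below by 0.0011, so the groups met without separating. FSS mice averaged 11.69 ± 0.039 and control mice 11.61 ± 0.061 (SD, n = 3 each). B2m was not called, at a log2 fold change of 0.085 (standard error 0.049, 95% interval -0.033 to 0.20, unadjusted p = 0.131 and adjusted p = 0.943 from limma). It was called when limma's prior variance followed the intensity (unadjusted p = 0.0363).

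Tap1 and Tap2 encode the subunits of the peptide transporter, which work as a heterodimer. Tap1 had log2 levels of 6.97, 6.92 and 6.80 in FSS mice, against 6.91, 6.80 and 6.88 in control mice. The highest value was that of FSS mouse 1, and FSS mouse 3 was level with the lowest control mouse. Its log2 fold change was 0.035 (95% interval -0.11 to 0.18, adjusted p = 0.978 from limma). Tap2 had log2 levels of 7.26, 7.37 and 7.41 in FSS mice, against 7.34, 7.30 and 7.22 in control mice. Here FSS mouse 1 was the lowest of its group and FSS mouse 3 the highest, the reverse of their order for Tap1. The log2 fold change of Tap2 was 0.060 (95% interval -0.079 to 0.20, adjusted p = 0.971 from limma).

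The immunoproteasome subunits were then examined. Psmb8, Psmb9 and Psmb10 encode the inducible catalytic subunits that take the place of those encoded by Psmb5, Psmb6 and Psmb7. Psmb8 had log2 levels of 6.35, 6.19 and 6.11 in FSS mice, against 6.31, 6.25 and 6.18 in control mice. FSS mice held both the highest and the lowest of the 6 values. Psmb9 had log2 levels of 7.79, 7.79 and 7.75 in FSS mice, against 7.94, 7.73 and 7.61 in control mice, so that all FSS mice lay inside the range of the control mice. Psmb10 had log2 levels of 9.36, 9.34 and 9.34 in FSS mice, against 9.31, 9.37 and 9.35 in control mice. It was the most even of the 10 genes, with SDs of 0.0092 in FSS mice and 0.030 in control mice. The log2 fold changes were -0.032 for Psmb8 (95% interval -0.20 to 0.14), 0.024 for Psmb9 (95% interval -0.18 to 0.22) and 0.0013 for Psmb10 (95% interval -0.094 to 0.097). None was called, with limma adjusted p of 0.984, 0.992 and 0.999.

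The level of each inducible subunit was also set against that of its constitutive counterpart within the same array. For Psmb8 minus Psmb5, this log2 difference averaged -5.70 ± 0.14 in FSS mice and -5.63 ± 0.030 in control mice (SD, n = 3 each, exact two-sided permutation p = 0.5). For Psmb9 minus Psmb6 it averaged -1.66 ± 0.020 in FSS mice and -1.60 ± 0.13 in control mice (SD, n = 3 each, exact two-sided permutation p = 0.8). For Psmb10 minus Psmb7 it averaged -1.11 ± 0.095 in FSS mice and -1.05 ± 0.014 in control mice (SD, n = 3 each, exact two-sided permutation p = 0.4). The groups overlapped in all 3 comparisons. The probes of different genes differ in brightness, so only the change between groups can be read from these differences, not the share of immunoproteasome.

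**Figure D2:**
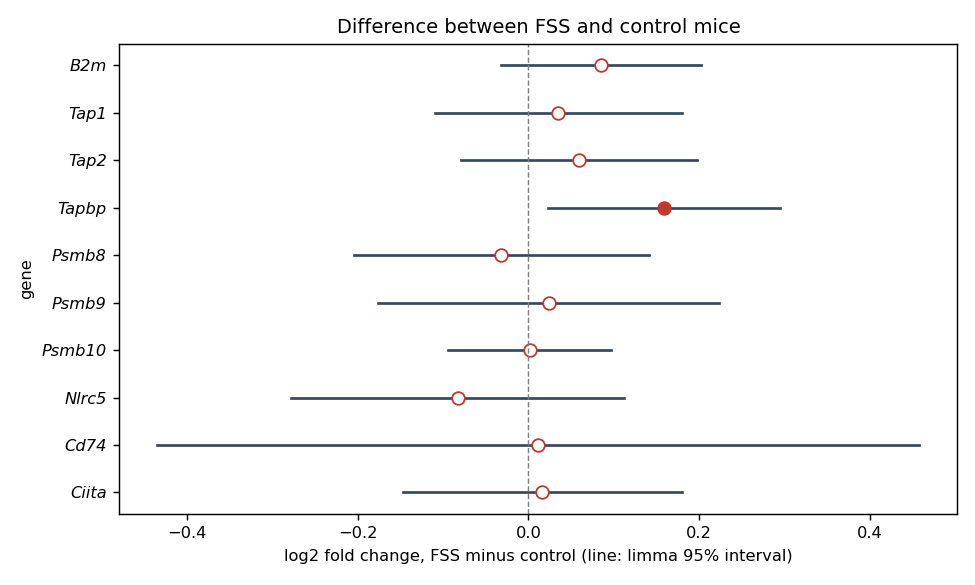
The 10 genes (y axis) with their log2 fold change between FSS and control mice (x axis, positive where FSS is higher). Circles are limma estimates, filled where the unadjusted p was under 0.05, and lines are 95% intervals. The interval excludes 0 for Tapbp (0.023 to 0.29) and is widest for Cd74 (-0.43 to 0.46).

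Cd74 and Ciita belong to the class II pathway. Cd74 encodes the invariant chain, which guides class II molecules to endosomes and blocks their groove on the way. Its log2 level was 5.96, 6.48 and 6.21 in FSS mice 1, 2 and 3, against 6.58, 6.05 and 5.99 in control mice 1, 2 and 3. FSS mouse 2 and control mouse 1 were high and the other 4 were lower, so the variation ran within the groups. The SD was 0.26 in FSS mice and 0.32 in control mice, and the standard error of 0.19 was the largest of the 10 genes. FSS and control mice differed by a log2 fold change of 0.012 (95% interval -0.43 to 0.46, adjusted p = 0.998 from limma). A change in Cd74 of any size within this interval is compatible with these arrays. Ciita had log2 levels of 6.01, 5.99 and 5.94 in FSS mice, against 6.05, 6.02 and 5.82 in control mice. All FSS mice lay within the range of the control mice, of which control mouse 3 was lowest. Its log2 fold change was 0.016 (95% interval -0.15 to 0.18, adjusted p = 0.994 from limma).

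The mean level of Cd74 lay at percentile 26.7 of all rows tested, that of Psmb8 at percentile 27.1, and that of Ciita below both. Markers of T cells on the same arrays had log2 levels from 4.79 to 7.21 over 6 genes, and markers of B cells from 3.92 to 6.45 over 4 genes, and none of these genes was called. No gene reaches 0 on this scale, and rows differ in brightness, so whether Cd74 and Ciita were expressed cannot be read from their levels.

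Nlrc5 encodes the co-activator of class I genes, of B2m and of Tap1. On this array it has 19 rows, more than any other of the 10 genes, each of which has 1. The row used here had log2 levels of 9.84, 10.13 and 10.00 in FSS mice, against 10.10, 10.13 and 9.99 in control mice. FSS mouse 1 was the lowest and the others were level across the groups. This row differed by -0.083 on the log2 scale (standard error 0.082, 95% interval -0.28 to 0.11, adjusted p = 0.971 from limma), and by -0.0063 without FSS mouse 1. The mean level of this row was 10.0, whereas the next had 8.21 and the dimmest 4.02, so the rows of this gene disagree in level by far more than the mice do.

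Nlrc5 had a log2 fold change below 0 in 16 of the 19 rows and above 0 in 3, with a median of -0.070 and a range from -0.33 to 0.096. These rows come from the same 6 mice and 1 gene and are not replicates. In 1 row, which was singled out after its values were seen, Nlrc5 was lower in FSS mice at an unadjusted p of 0.00288 (limma adjusted p = 0.943). Its log2 levels were 4.85, 4.84 and 4.64 in FSS mice, against 5.08, 5.19 and 5.05 in control mice, at percentile 10.1 of all rows. All 3 FSS mice were below all control mice there, as was the case in 4.25% of all rows. None of the other 18 rows was called.

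**Figure D3:**
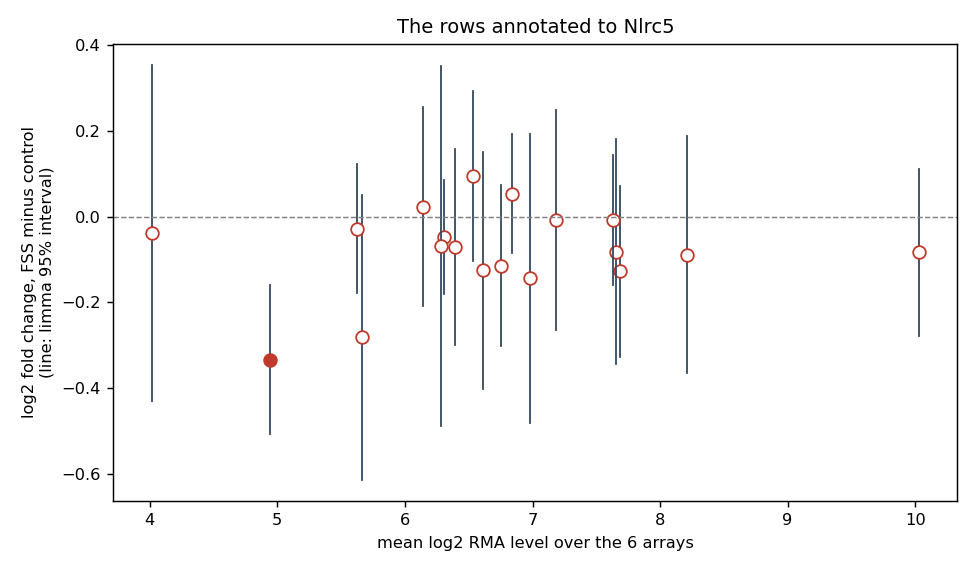
The 19 rows annotated to Nlrc5, with the log2 fold change between FSS and control mice (y axis, positive where FSS is higher) against the mean log2 RMA level of each row over the 6 arrays (x axis). Lines are limma 95% intervals and the filled circle has an unadjusted p under 0.05. The rows span levels from 4.02 to 10.0, and 16 of them lie below 0.

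The 10 genes did not share a profile that followed the groups. With each gene centred on its mean over the 6 arrays, the mean over the 10 genes was -0.0017, 0.053 and -0.0099 in FSS mice 1, 2 and 3, against 0.077, -0.025 and -0.093 in control mice 1, 2 and 3. The highest and the lowest array were thus both of control mice. Of the 10 genes, 4 had their highest level in FSS mouse 1 and 3 in control mouse 1, and 4 had their lowest level in control mouse 3. Outside the lists used here, the genes of above-median level whose 6 values were most like this mean profile were Lce1j (Pearson's r = 0.98), Nme2 (r = 0.97) and Iqsec2 (r = 0.96), over 6 arrays and out of 9774 genes compared. Their r values are the highest of many and describe these arrays only.

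Other genes of the pathway were taken from 11 lists. Of 88 genes listed, 74 had a row with a single symbol, of which 2 were higher, 1 was lower and 71 did not pass, where 2.49% of all rows were higher and 2.66% lower. The shares called were thus near those of all rows. The median log2 fold change of the 74 genes was 0.027, against 0.0049 over all rows. Of the 74, 52 were above 0 and 22 below, while 53.0% of all rows were above 0. FSS mice lay above control mice without overlap for 12 genes and below for 2, against 6.02% and 4.25% of all rows. The summed log2 level was 622.4 to 623.2 in FSS mice, against 619.5 to 621.8 in control mice, without overlap. Such sums were not made for all rows, and only 30 of the 74 genes lay under the median level of all rows. With quantile normalization, which gives the arrays the same spread, the median log2 fold change of the 74 genes was 0.016. The 74 genes were measured in the same mice and are not independent, and no test of the set was run. Cd1d1 encodes a class I-like molecule that presents lipids to natural killer T cells. It had log2 levels of 4.73, 4.60 and 4.77 in FSS mice, against 4.47, 4.38 and 4.58 in control mice, without overlap. The difference of Cd1d1 was 0.22 on the log2 scale (standard error 0.070, unadjusted p = 0.0168, adjusted p = 0.943 from limma), at percentile 7.41 of all rows. Cd80 encodes a co-stimulatory ligand for T cells. It had log2 levels of 6.16, 6.32 and 6.15 in FSS mice, against 6.14, 5.71 and 5.96 in control mice, again without overlap. The difference of Cd80 was 0.27 on the log2 scale (standard error 0.11, unadjusted p = 0.0442, adjusted p = 0.943 from limma), whereas a dimmer row of Cd80 gave 0.026 (unadjusted p = 0.763 from limma). Cd80 did not pass when any 1 mouse other than control mouse 1 was left out (log2 fold change 0.16 to 0.30, limma unadjusted p of 0.0618 to 0.132). Cd1d1 did not pass without FSS mouse 1, FSS mouse 3 or control mouse 2 (0.17 to 0.21, limma unadjusted p of 0.0527 to 0.0583). With all mice kept, Cd80 also did not pass under 5 alternatives, among them the mean of its rows (0.15, limma unadjusted p = 0.0751), and Cd1d1 did not pass with an intensity trend (limma unadjusted p = 0.0585).

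H2-Ob was the lower gene. It encodes the β chain of H2-O, which restrains the peptide exchange factor H2-DM in B cells and some other cells. Its log2 level was 6.92, 6.85 and 6.92 in FSS mice, against 7.06, 6.99 and 7.06 in control mice, without overlap. The difference of H2-Ob was -0.14 on the log2 scale (standard error 0.045, unadjusted p = 0.0157, adjusted p = 0.943 from limma). It was not called without control mouse 1 (-0.13, limma unadjusted p = 0.0517) or with an intensity trend (limma unadjusted p = 0.0524). Of the 7 measured class II chains and exchange factors, H2-Ob was the only one that passed, while the median of the list was 0.081, with 4 genes above 0 and 3 below. H2-DMa, a chain of the exchange factor and the brightest row of the list, differed by 0.084 on the log2 scale (limma adjusted p = 0.945). The class II chain H2-Eb1 had log2 levels of 6.92, 7.11 and 6.96 in FSS mice, against 7.35, 7.05 and 6.87 in control mice, with control mouse 1 high as for Cd74. H2-Eb2 was also highest in control mouse 1 (6.06). By contrast, H2-Aa and H2-Ab1 were highest in FSS mouse 2 (5.37 and 6.41, against 5.20 and 6.11 in control mouse 1). Neither was called in the main fit, and both were called higher without FSS mouse 1 (0.18 and 0.21, limma unadjusted p of 0.0448 and 0.0234). Neither was called when any other mouse was left out. H2-Aa was also called higher with the array spread as a block (0.16, limma unadjusted p = 0.0371).

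Of the 19 class I heavy chains listed, 9 had a row with a single symbol, and none passed (median log2 fold change 0.0061). H2-K1 and H2-D1, the classical chains of this strain, had none and were not analysed here. The brightest of the measured chains, H2-M5, differed by -0.14 on the log2 scale (limma adjusted p = 0.971). It was called lower without control mouse 3 (-0.31, limma unadjusted p = 0.00781), and was not called when any other mouse was left out. The class I-like gene Mr1, whose product presents vitamin metabolites, had a log2 fold change of 0.011. Of the 5 genes of peptide loading and trimming, none passed, while 4 had a log2 fold change above 0 and 1 below. Their summed log2 level was 48.08 to 48.22 in FSS mice, against 47.76 to 47.99 in control mice, without overlap. Canx, the chaperone calnexin, had log2 levels of 12.50, 12.50 and 12.53 in FSS mice, against 12.46, 12.44 and 12.46 in control mice. These did not overlap, with a log2 fold change of 0.055 (unadjusted p = 0.203, adjusted p = 0.947 from limma). Calr of the same list had log2 levels of 11.42, 11.38 and 11.36 in FSS mice, against 11.35, 11.29 and 11.29 in control mice, also without overlap. Its log2 fold change was 0.075 (unadjusted p = 0.124, adjusted p = 0.943 from limma). In all rows, FSS lay above without overlap in 6.02%. With an intensity trend, Canx and Calr were called higher (limma unadjusted p of 0.0424 and 0.0325).

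Of the proteasome, 14 subunits of the 20S core other than the inducible ones were measured. All 14 had a log2 fold change above 0, from 0.00058 to 0.11, and none passed, the smallest unadjusted p being 0.0599 (limma), of Psma5. Of all rows, 53.0% were above 0. In 5 of the 14 subunits FSS mice lay above control mice without overlap, a larger share than the 6.02% of all rows. The 14 subunits were bright, at percentiles 63.5 to 99.0 of all rows, whereas these shares are over rows of every level. The part of brightness and of the unequal spread of the arrays in this difference was not tested. The 14 subunits were measured in the same mice and are not independent, and their common sign was noticed after the values were seen. Psma5 had a second row, not used by the rule, with a log2 fold change of 0.29 (unadjusted p = 0.00542, adjusted p = 0.943 from limma). The rows not used of Psma3 (0.033 and 0.035) and of Psmb3 (0.036) were not called (limma unadjusted p of 0.463 to 0.589). Of the brightest genes of these lists, the log2 fold change was 0.039 for the catalytic subunit Psmb5, 0.018 for the core subunit Psmb3 and 0.024 for the activator Psme3.

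The remaining lists held no called gene apart from Cd80. Cd86, of the same list as Cd80, differed by 0.26 and was not called (unadjusted p = 0.057, adjusted p = 0.943 from limma). It was called higher with quantile normalization, with median centring of arrays and without control mouse 2. The same held with the replicate number or the array spread as a block. The brightest members were the endosomal protease gene Ctsb (log2 fold change 0.011), Nfyc, a subunit of the factor that binds CCAAT boxes (0.017), the interferon-γ receptor chain Ifngr2 (0.078) and the co-stimulatory ligand Icosl (0.062). Ifng itself, the gene of interferon-γ, had log2 levels of 5.93, 6.11 and 5.97 in FSS mice, against 6.13, 6.10 and 5.97 in control mice, and the groups overlapped. Its list had a median log2 fold change of -0.019 with 0 of 9 genes called.

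**Figure D4:**
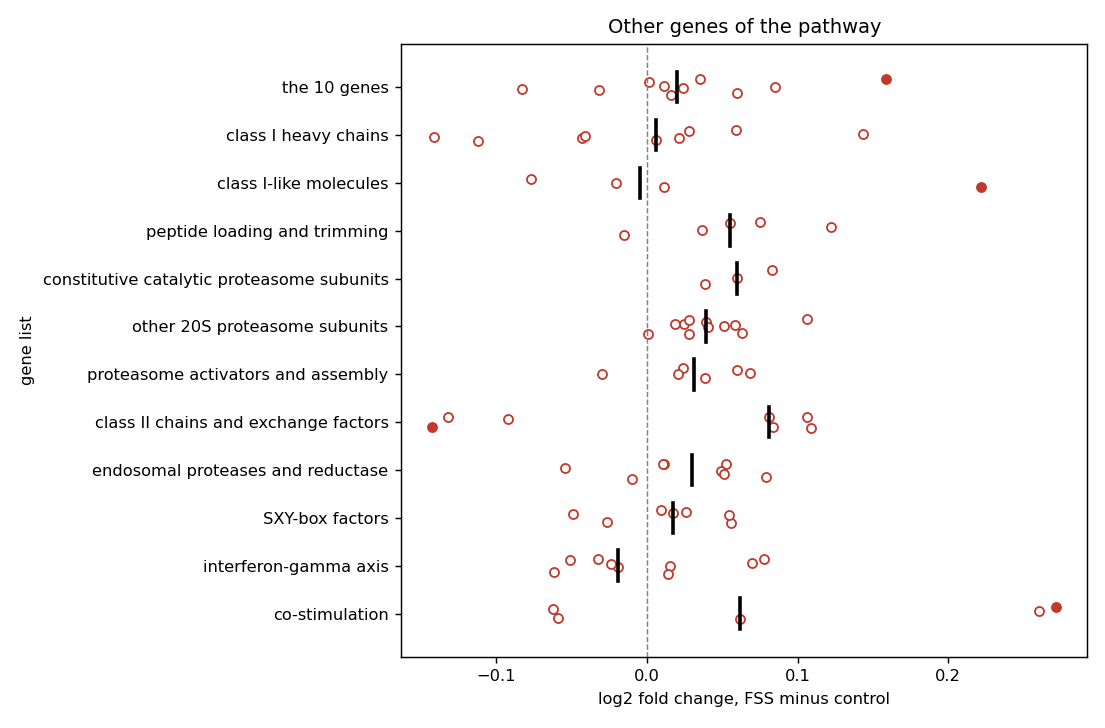
The 10 genes and the genes measured in 11 lists of the same pathway (y axis), with their log2 fold change between FSS and control mice (x axis, positive where FSS is higher). Circles stand for genes, those filled being called, and black lines for list medians. The filled circles are Tapbp, Cd1d1, H2-Ob and Cd80, and the medians lie between -0.019 and 0.081.

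Lists of cell type markers were read beside Tapbp. Each marker called had a limma adjusted p of 0.943, and 2.49% of all rows were called higher and 2.66% lower. Among the microglial markers, 10 were measured, all with a log2 fold change above 0, of which 4 (Cx3cr1, Siglech, Trem2 and Itgam) were higher in FSS mice and 0 lower. The sum of their log2 levels was 83.2 to 84.0 in FSS mice, against 81.1 to 82.9 in control mice. Of 5 astrocytic genes, 3 (Gfap, Aqp4 and Gja1) were higher and 0 lower, with sums of 50.7 to 51.0 in FSS mice, against 49.9 to 50.4 in control mice. For both lists these sums did not overlap. Single genes were higher among 7 markers of hippocampal neurons (Prox1), 7 of border macrophages (F13a1), 7 of dendritic cells (Flt3), 5 of the choroid plexus (Ttr) and 6 of the meninges (Lum). For border macrophages and dendritic cells, 4 of the 7 genes were below 0, and sums of these 5 lists overlapped between the groups. Of 5 genes of neutrophils and monocytes, all were below 0 and 1 (S100a9) was lower. Sums of this list also overlapped, at 24.3 to 25.4 in FSS mice and 25.1 to 26.0 in control mice. These 5 genes were dim, at percentiles 3.34 to 32.0 of all rows. No gene was called among 8 endothelial, 3 oligodendrocytic, 6 T cell and 4 B cell markers, where 5 of the T cell genes were below 0, or for the 1 blood gene measured. The part of these cell types in the level of Tapbp was not tested.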

How the data were processed

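The authors hybridized RNA of each mouse to an Affymetrix GeneChip Mouse Gene 1.0 ST array and deposited log2 levels, normalized and summarised by RMA in the Affymetrix Expression Console. The genome build is not given in the sources used here, and no coordinates are printed. The order of neighbouring genes came from positions in the RefSeq annotation. Of 28944 rows, 21789 have 1 symbol by the annotation of the array, 1621 have several and named no gene, and 5534 are unnamed here. Gene IDs of 21698 rows were matched to RefSeq, which changed 0 symbols.

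The difference between FSS and control mice came from limma 3.58.1 in R 4.3.3, with lmFit and eBayes and no covariate, after a check on simulated data. The paper gives thresholds for its arrays and, for its data in general, Student's t-test or the Mann-Whitney test. Student's test is the variance of each gene alone, the methods' t-test, and was run as an alternative. The members and lists were chosen with earlier results of these data known. Named are the 10 genes, called genes and the brightest gene of each pathway list, and the 3 genes most like the mean profile. The other pathway genes with values, Ifng and the second row of Psma5 among them, and the cell type markers named were chosen after their values were seen. Summed log2 levels serve only to compare the same list between mice. A planned search of promoters was not run. Alternatives were other variance models, array weights, normalizations, row choices, blocks, a stricter threshold and leaving out each mouse.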

Additional observations from a re-analysis of the deposited data

How the results depend on the processing

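Tapbp kept its direction under every alternative run, and passed an unadjusted p of 0.05 in each except 3 of the 6 omissions of a mouse and the threshold of 0.01. Of the 10 genes, 0 to 1 were higher when each mouse was left out in turn, 0 were higher at a threshold of 0.01, and 2 were higher with an intensity trend (Tapbp and B2m). None was lower under any of these settings. The median of the 10 genes was -0.023 to 0.072 without each mouse and 0.060 with the array spread as a block. Of the pathway genes, 6 were higher and 2 lower with the variance of each gene alone, the methods' t-test, and 0 were lower with an intensity trend. Without dim rows 44 pathway genes remained, of which 1 (Psma5) was higher and 0 lower. Cd1d1, H2-Ob and Cd80 were removed there as dim and were not tested. Leaving out each mouse gave 0 to 5 higher and 0 to 2 lower. Cd80 lost its call with the variance of each gene alone, array weights, either block and the mean of its rows (unadjusted p of 0.0564 to 0.115, limma but for the methods' test). Over all rows, the methods' t-test called 1089 (5.0%) at an unadjusted p of 0.05, and 0 after the adjustment of Benjamini and Hochberg.

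Genes near 0 changed sign. With array weights the log2 fold change was -0.0020 for Psmb9, -0.081 for Cd74 and -0.00010 for Ciita, and for Psmb10 it was -0.013 with quantile normalization and -0.0030 with the spread block. Over the omissions it was -0.0038 to 0.085 for Tap1, -0.10 to 0.024 for Psmb8, -0.052 to 0.11 for Psmb9, -0.016 to 0.013 for Psmb10, -0.12 to 0.20 for Cd74 and -0.055 to 0.060 for Ciita. The cause was not tested.

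With the replicate number as a block, 1 of the 10 genes (Tapbp) and 3 pathway genes (Cd1d1, H2-Q4 and Cd86) were higher and 1 (H2-Ob) was lower, while Cd80 was not called (limma unadjusted p = 0.0759). Deviations of equally numbered mice correlated at -0.048, 0.14 and 0.24, and those of unequally numbered mice at -0.26 to 0.13. The values 0.14 and 0.24 were thus the highest. The labels do not say that equal numbers pair the mice, and these few correlations cannot decide it. The main fit did not pair the mice. No detection calls were used, so how far dim rows such as those of Cd1d1 and Cd80 stand above background was not tested.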
